A study of Potamopyrgus antipodarum with 6 samples.

Results

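The windows described here are 100 bp pieces of sequence that took a larger share of the precipitated, methylated DNA in every river pool than in any lake pool. They come from foot tissue of Potamopyrgus antipodarum, the New Zealand mud snail, an asexual freshwater snail that has invaded North America. Lake snails came from Lake Lytle in Oregon, and river snails from Ritter Island on the Snake River in Idaho, with 3 pools of 10 individuals per site. The labels call the river site a side channel, and the study's text describes its river sites there as the main channel and a spring stream that feeds it. All were caught in the field, kept at 14 °C and given no treatment. The study describes snails of the western United States as parthenogenetic females of a single clonal lineage, and the genotype of these pools was not analysed here. With 1 lake and 1 river, the habitat and the site cannot be told apart. A window was taken when its counts summed over the 6 pools reached 31 and when its lowest river CPM was at least 1.5 times its highest lake CPM. CPM is the count of a window scaled to a total of 1000000 counts in its pool. Of 739509 windows, 98470 had 31 or more counts, and 324 of these (0.329%) met the rule.

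DNA methylation in animals is the addition of a methyl group to cytosine, mostly where a cytosine is followed by a guanine. In molluscs and many other invertebrates it is a mosaic, with methylated gene bodies between largely unmethylated sequence. In MeDIP, sheared and denatured DNA is pulled down with an antibody against methylated cytosine and sequenced. A MeDIP count rises with methylation and with the number of methylated sites in a fragment. It also rises with the copy number of the sequence, and it depends on whether reads of that population map to the reference. These contributions cannot be told apart here, because no unprecipitated DNA was analysed.

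The reads had been mapped to a transcriptome of the species whose contigs were joined into 1 sequence. Positions below count from 1 on this joined sequence of 73950900 bp. Windows were grouped into covered stretches, each ending where at least 8 windows in a row had no count in any of the 6 pools. A stretch stands for a contig or part of one. There were 43878 stretches, with a median length of 500 bp.

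Total counts ran from 4040377 to 5013750 in the lake pools and from 2212650 to 4175301 in the river pools. The counts of lake pools 2 and 3 agreed within sampling noise (chi-square of 0.805 per window, where noise alone gives about 1). The means with an SD given below for single windows therefore treat this pair as 1 sample. Log2 ratios of river over lake use the mean of all 3 lake pools. River pool 12 stood apart from the other river pools, with 2.27 per window against river pool 10 and 3.53 against river pool 11 but 1.15 against lake pool 1. No window held more than 300 counts in any pool. The highest count in any window of the set was 181.

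The rule chose windows by the lake to river contrast, so that contrast is given as a description. The same rule in the opposite direction took 4199 windows (4.26%), so windows higher in all river pools were the less common kind. The size of this imbalance moved with the pools and with the scaling. Without river pool 12 the rule took 1848 windows in the river direction and 20251 in the lake direction, and without lake pool 1 it took 1019 and 8393. TMM-adjusted totals gave 624 windows in the river direction and 2922 in the lake direction. DESeq2 size factors gave 743 and 2530, and with the trend of each pool with window count removed, a step chosen after seeing the data, 1082 and 1654. The median log2 ratio of river over lake over all windows with 10 or more counts was -0.27 with column totals, -0.12 with TMM-adjusted totals and -0.07 with DESeq2 size factors. Of the 324 windows, 322 were also taken with TMM-adjusted totals and 321 with DESeq2 size factors.

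Across the set the lake pools had median CPM values of 1.49 (pool 1), 1.35 (pool 2) and 1.40 (pool 3). The river pools had 4.04 (pool 10), 4.07 (pool 11) and 4.07 (pool 12). Counts and CPM of single windows are given below in this order of pools. The river pools thus lay at a common median, although their total counts differ. Over all windows with 31 or more counts the medians were 4.21, 4.51 and 4.79 in the lake and 2.94, 2.71 and 4.31 in the river. Windows of the set were lower than the general level in all lake pools and higher than it in river pools 10 and 11. In river pool 12 the median of the set (4.07) was below the general median (4.31). The pool that limited membership was river pool 12 in 132 windows, river pool 11 in 104 and river pool 10 in 88. Among the windows with a lake count, the highest lake pool was lake pool 1 in 134, lake pool 3 in 122 and lake pool 2 in 61.

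**Figure D1:**
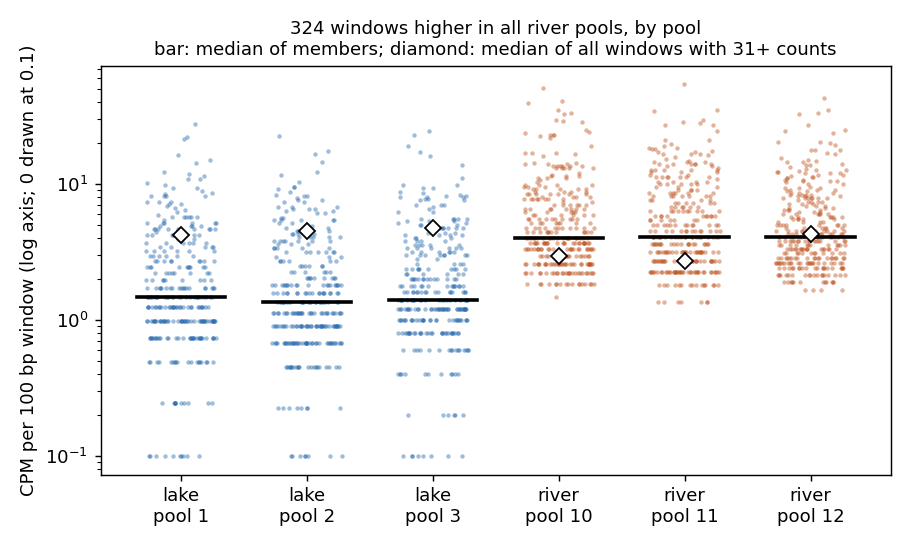
Each point is the CPM (log axis) of 1 of the 324 windows in 1 pool, with lake pools in blue and river pools in orange, black bars at the medians of these windows and white diamonds at the medians of all windows with 31 or more counts. The bars lie at 1.35 to 1.49 in the lake pools and at 4.04 to 4.07 in the river pools, while the diamonds run from 2.71 to 4.79.

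Most of the windows lay close to the threshold. In the 317 windows with a lake count, the ratio of the lowest river to the highest lake CPM had a median of 1.72 and a range of 1.50 to 62.1. It was under 1.75 in 172 windows, from 1.75 to 2 in 81 and 2 or more in 64. Only 11 of these reached 3, and 3 reached 5. The other 7 windows had no count in any lake pool. Just inside the threshold, the window starting at 3659201 had lake counts of 19, 18 and 24 and river counts of 21, 25 and 30. The windows starting at 36798701 and 55586601 had the same ratio of 1.501. Just outside, those starting at 27195801, 72666501 and 33999101 had ratios of 1.4997, 1.498 and 1.497. The first of these had lake counts of 14, 17 and 16 and river counts of 19, 21 and 24, so windows on either side of the threshold looked alike.

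The counts behind the windows were low. Summed counts had a median of 53.5 and ran from 31 to 774, against a median of 91 over all windows that could be taken. The lowest river count of a window had a median of 8, and it was 5 or fewer in 72 windows. A window of few counts can reach 31 through its river counts, and such a window had to differ in order to be taken.

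The share of windows taken was highest at low and lowest at high window counts, with a second rise between. It was 0.564% in windows of 31 to 60 summed counts (179 windows), 0.255% at 61 to 120 (69 windows) and 0.361% at 121 to 240 (57 windows). Above this it was 0.141% at 241 to 480 counts (15 windows) and 0.0302% above 480 (4 windows). The general ratio of river over lake was highest where windows of the set were rarest, with a median log2 ratio of -0.42 at 31 to 60 counts, -0.52 at 61 to 120 and 0.20 above 480. Windows whose river pools were all above the lake pools by any margin made up 3.04% at 31 to 60 counts and 23.5% above 480, beside 8.08% of all windows with 31 or more counts. Among heavily precipitated windows a small excess in all river pools was thus frequent, and an excess of 1.5 times was rare.

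**Figure D2:**
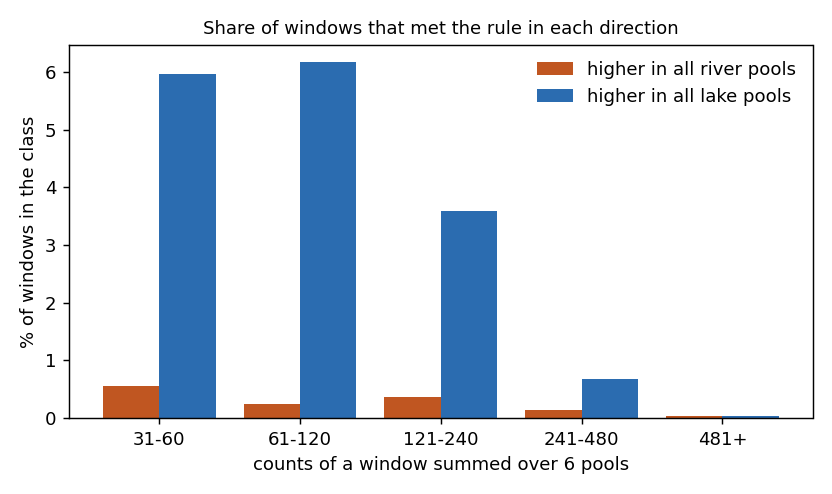
Bars give the percentage of windows in each class of summed counts that met the rule with river higher (orange) or with lake higher (blue). River bars run from 0.564% at 31 to 60 counts to 0.0302% above 480, and lake bars are taller except above 480 counts, where both kinds number 4 windows.

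Most of the windows had no other window of the set beside them. The 324 windows formed 279 runs in 276 stretches, and 238 of them stood alone. There were 38 runs of 2 windows, 2 runs of 3 and 1 run of 4. Together 86 windows, 26.5% (95% exact binomial interval 21.8% to 31.7%), lay beside another window of the set, against 36.5% for windows higher in all lake pools. This share was 55.1% without river pool 12 and 42.9% without lake pool 1, where the sets were larger. Intervals of shares treat windows as independent, which neighbouring windows are not, and leave out the spread between pools. Intervals of ratios further below cover counting error only, and the reads carry no molecular identifiers. Of 323 adjacent windows with 31 or more counts, 90 (27.9%) were also in the set, where 0.329% of all such windows were. For windows higher in all lake pools it was 29.2%, where 4.26% of all such windows were. Reads of neighbouring windows can come from the same fragments, so this closeness is not independent evidence of a difference. A stretch held 1 window of the set in 232 cases, 2 in 41 and more in 3.

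The windows were spread over the whole joined sequence. In 10 equal parts of its length, from 0.188% to 0.642% of windows with 31 or more counts were in the set, lowest in the second part and highest in the sixth. The median distance between successive windows was 141300 bp and the largest was 1627400 bp.

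The windows lay more often at the end of a covered stretch than windows in general did. The first or last window of a stretch made up 114 of 324, or 35.2% (30.0% to 40.7%), against 20.4% of all windows with 31 or more counts and 17.2% of windows higher in all lake pools. Of the 114, 62 were first windows and 52 last windows. A further 38.3% lay next to an end window, against 35.9% of all windows, and fewer lay deeper inside. Stretches that held the set were short, with a median of 5 windows against 6 over all windows with 31 or more counts. In the isolated stretches of 1 to 4 windows lay 122 of the 324 windows (37.7%), against 18.1% of all windows.

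Stretch length moved with this difference. In stretches of 1 to 2 windows every window is an end, and they held 29 windows of the set (8.95%), against 2.72% of all windows. In stretches of 3 to 4 windows, 51.6% of the set were end windows against 38.9% of all windows. The share at an end was 24.3% against 20.5% in stretches of 5 to 6 windows and 15.5% against 11.9% in those of 7 to 10. In stretches of 11 or more windows it was 5.41% (2 of 37 windows) against 6.31%. Window count moved with it as well, since end windows made up 35.2% of the set and 25.3% of all windows at 31 to 60 counts, and 44.9% and 18.4% at 61 to 120 counts. The order turned at 241 to 480 counts, with 13.3% of the set (2 of 15 windows) against 25.02%, and above 480 counts, with 0 of 4 windows against 7.30%. The share at an end depended on single pools. It was 22.5% without river pool 11, close to the 20.1% of all windows in that setting, 52.1% without river pool 12 (19.6% of all windows), and 27.7% with TMM-adjusted totals.

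**Figure D3:**
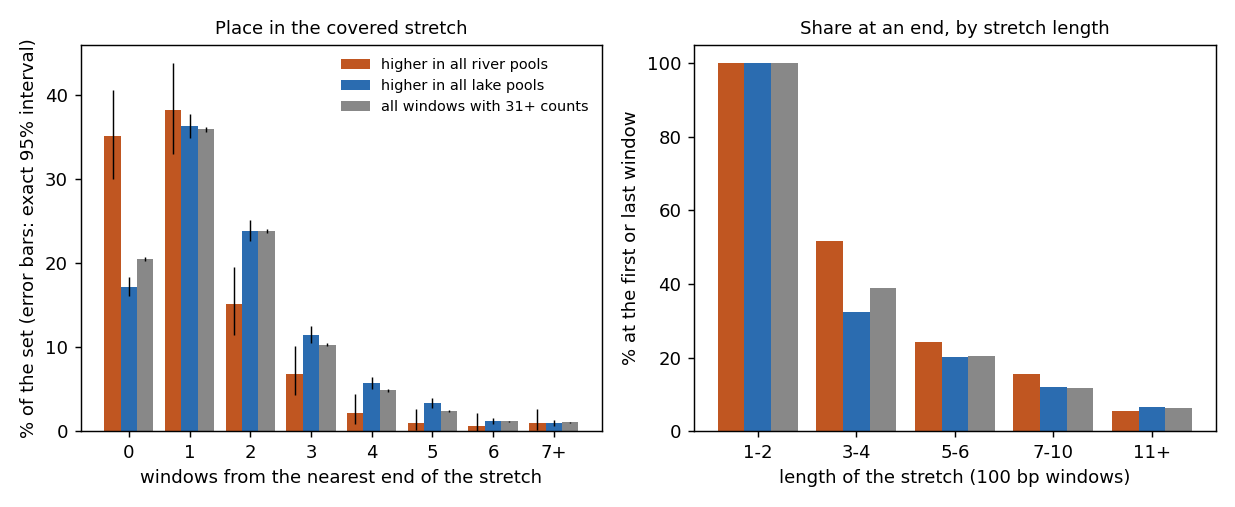
The left panel gives the percentage of windows at each distance, in windows of 100 bp, from the nearest end of their stretch, for the river-higher windows (orange), the lake-higher windows (blue) and all windows with 31 or more counts (grey), with exact 95% intervals. At distance 0 the values are 35.2%, 17.2% and 20.4%, and the right panel gives the percentage at an end within classes of stretch length, for example 51.6%, 32.5% and 38.9% in stretches of 3 to 4 windows.

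Windows flanking the set were also higher in river, and this faded with distance. At 1 window from the nearest member, 357 windows with 10 or more counts that were not in the set had a median log2 ratio of 0.78 (quartiles 0.49 and 1.02), on the scale of CPM plus 0.5. The ratio was above 0 in 94.7% of them. At 2 windows the median was 0.36 over 197 windows, and at 3 windows it was 0.04 over 123. At 5 windows it was -0.01 over 47 windows, and at 10 windows it was -0.51 over only 9. The median over all windows with 10 or more counts was -0.27. The excess was thus clearest within 200 bp of a member and had shrunk by 300 bp. DNA was sheared on a 300 bp program, so flanks at these distances can share fragments with the member. Their excess is a description and not independent of the choice. Flanks farther away come only from longer stretches.

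The 3 river pools gave similar flank values at 1 window, with median log2 ratios over the lake mean of 0.80 (pool 10), 0.77 (pool 11) and 0.65 (pool 12). At 3 windows they were 0.17, -0.20 and 0.10, so the pools differed in sign there. River pools were all above lake pools in 215 of the 357 adjacent windows (60.2%), against 6.72% of all windows with 10 or more counts, of which 20.8% had all river pools below the lake pools. The share of flanks fell to 29.4% at 2 windows and 17.1% at 3. Over all flanks within 10 windows the median was 0.43, with an SD of 0.11 over the river pools.

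**Figure D4:**
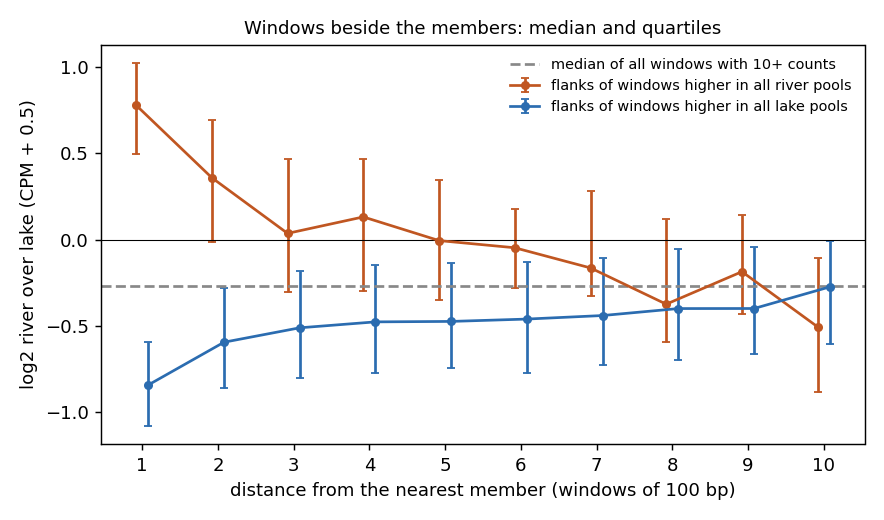
Points are median log2 ratios of river over lake in windows at 1 to 10 windows of 100 bp from the nearest river-higher window (orange) or lake-higher window (blue) of the same stretch, with bars to the quartiles and a dashed line at the median of all windows with 10 or more counts (-0.27). The orange median falls from 0.78 at 1 window to 0.04 at 3 windows, and the blue median rises from -0.84 at 1 window to -0.51 at 3.

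Seen from the windows themselves, 648 sides had 114 ends of a stretch, 90 windows of the set and 85 windows under 10 counts. Of the remaining 359 sides, the river pools were all above the lake pools in 216 and overlapped with them in 143. None was a window higher in all lake pools by the rule. Members were also set against their adjacent windows within each pool, as a description, since the rule used these values. The median log2 ratio of a member to its adjacent windows was -0.17, -0.22 and -0.12 in the lake pools over 261 members. It was 0.25, 0.40 and 0.24 in the river pools. Few members showed a fall in the lake together with a rise in the river. In 114 members both sites were higher at the member than beside it, in 106 both were lower, and in 41 the lake fell while the river rose. The reverse was found in 0, which the choice of members favours.

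Beyond the members, most of their stretches leaned to river as well. In 253 of the 276 stretches other windows with 10 or more counts remained, and their summed CPM had a median log2 ratio of 0.69. It was above 0 in 223 stretches. River pools were all above lake pools in the rest of 142 of these 253 stretches, and all below them in 2. Over all 34436 stretches with a window of 10 or more counts, the shares were 9.08% and 20.7%. Those shares used the sum of all such windows of a stretch. The rest includes windows next to a member, which can share its fragments, so it is not independent of the choice. In 64 stretches every window with 31 or more counts was in the set.

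The 5 windows with the largest ratios lay in 3 stretches and were nearly empty in the lake. At 73236201 the lake pools were empty and the river counts were 68, 30 and 99, which is 20.8 ± 6.26 CPM (SD, n = 3). With the lake set to 3 counts in all, this window was 97.2-fold higher in river. The lower limit of the exact counting interval of the ratio, from the observed counts, was 78.3. The adjacent window at 73236301 was also empty in the lake, with river counts of 18, 10 and 22. It was 24.7-fold higher with the same 3 lake counts assumed, with a lower counting limit of 19.3. This unnamed stretch of 4 windows held no lake count at all.

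At 33289301 the lake counts were 0, 1 and 0 and the river counts 62, 31 and 85, and the ratio of pooled counts, each over its pooled totals, was 264 with a counting interval of 46.7 to 10469. Its neighbour at 33289401 had lake counts of 1, 3 and 1 and river counts of 63, 37 and 71. This was 0.343 ± 0.135 CPM (SD, n = 2) against 19.0 ± 3.63 (SD, n = 3). River pool 11 was the lowest river pool in each of these windows by count and by CPM. At 42442701 each lake pool had 1 count and the river counts were 30, 18 and 33. The levels were 0.230 ± 0.0248 CPM (SD, n = 2) and 9.02 ± 1.74 (SD, n = 3), and the ratio of pooled counts over pooled totals was 39.98 (counting interval 13.2 to 198). Its flanks within the stretch were nearly empty at both sites, with at most 1 count in any pool, so the signal was a lone window.

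Windows without a lake count also occurred inside stretches that the lake pools did cover. In the stretch from 2103301 to 2104400, the windows at 2103501 and 2103601 lacked lake counts. Their river counts were 12, 3 and 17 in the first and 21, 4 and 20 in the second. Further on, at 2104101, the lake counts were 10, 10 and 8 and the river counts 7, 6 and 9, so both sites were covered there. The study's BLAST search gave this stretch a name read here as zbtb8os, whose human product is an archease that assists the tRNA ligase complex.

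The stretch from 3631001 to 3632500, named after its values were seen, showed a change of direction along its length. At 3631201 and 3631301 the lake was empty, and river counts were 13, 6 and 15 in the first window and 21, 8 and 20 in the second. At 3631601 the lake counts were 30, 41 and 51 and the river counts 7, 5 and 28. At 3632001 they were 34, 54 and 54 in the lake and 12, 8 and 39 in the river. River pool 12 was closer to the lake pools than the other river pools were in this second part.

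The windows with the most counts had modest ratios. At 25634101 the lake counts were 111, 100 and 123 and the river counts 139, 120 and 181. This was 25.5 ± 2.78 CPM (SD, n = 2) against 49.6 ± 5.60 (SD, n = 3). Its neighbour at 25634201 was also in the set, with 18 to 24 lake counts and 21 to 35 river counts. The lowest river pool exceeded the highest lake pool 1.58 times in the first and 1.75 times in the second. The others with most counts started at 1671401 (ratio 1.52), 26188101 (1.51), 13138901 (1.56) and 29832201 (1.68). None of the 5 lay at the end of its stretch.

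There were 2 runs of 3 windows, and the one at 73236101 lay in the stretch without lake counts. The other, from 52849001 to 52849300 in an unnamed stretch of 6 windows, rested on few counts. Its first window had 4, 9 and 11 lake counts and 15, 11 and 16 river counts, and its ratio was 1.75. The other windows had ratios of 1.65 and 1.78. The fifth window of the stretch had 4, 3 and 5 lake counts and 9, 3 and 18 river counts, so river pool 11 lay within the lake pools by count and a little above them by CPM (1.36 against 0.676 to 0.997). The pairs with the most counts among the runs of 2 started at 26188001 and 25634101.

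The longest run, and the stretch with the most windows of the set, carried a mitochondrial gene name. Gene names come from the study's own BLAST search and are no sample of all genes. The search covered only regions called between a lake and a river, at these sites or at the study's other lake and river. Of the 276 stretches, 14 had such a name, with 21 windows of the set. The run from 4760501 to 4760900 lay in a stretch of 8 windows named COX1, the mitochondrially encoded core subunit of cytochrome c oxidase. Its windows starting at 4760501, 4760601, 4760701 and 4760801 had ratios of 1.51, 1.65, 1.60 and 1.59. In the third of these the lake counts were 48, 36 and 33 and the river counts 91, 42 and 85. This was 9.61 ± 3.20 CPM (SD, n = 2) against 24.3 ± 7.98 (SD, n = 3), with river pool 10 (33.4 CPM) above river pools 11 (19.0) and 12 (20.4).

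Other stretches with the names of mitochondrial genes are given for comparison, chosen after these values were seen. The study's search named 8 stretches after COX1, ATP8 or ND3, and 3 of them held 6 windows of the set. These genes encode subunits of cytochrome c oxidase, ATP synthase and complex I in mitochondrial DNA. Some of the names, such as that at 648201, come from the study's comparison of its other lake and river. The COX1 stretch at 29501 held 1, at 30101, with 8, 7 and 9 lake counts and 16, 8 and 17 river counts. The ATP8 and COX1 stretch at 4225701 also held 1, at 4226101, with 2, 8 and 6 lake counts and 15, 7 and 12 river counts. Summed over a stretch, river pool 10 had the highest CPM of the 6 pools in 7 of the 8 stretches, up to 116 CPM in the COX1 and ND3 stretch at 14169201. River pool 11 was lower there (61.9 CPM) and fell below all lake pools in the COX1 stretch at 648201 (37.1 against 47.8 to 57.2 CPM). The COX1 and ATP8 stretch at 30781301 went the other way, with 77.1 to 81.9 CPM in the lake and 65.0 to 72.8 in the river. Stretches named after the same mitochondrial genes thus did not all differ in 1 direction. The number of mitochondrial genomes per cell differs between tissues and individuals, and a change in it cannot be told apart from a change in methylation in these counts.

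**Figure D5:**
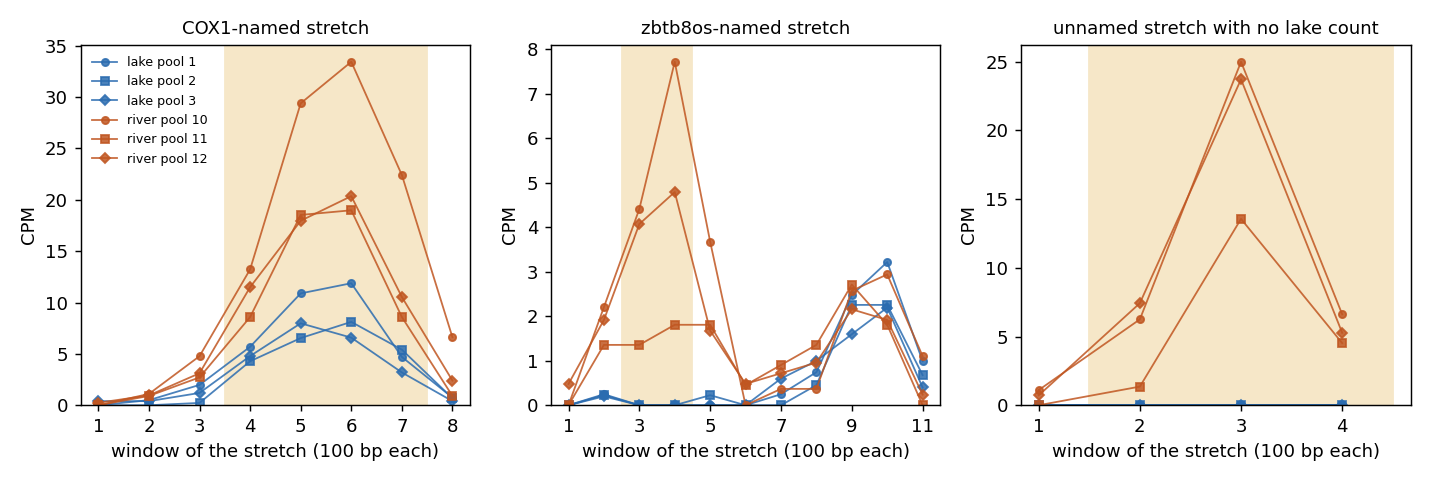
Lines give the CPM of each pool (lake in blue, river in orange) along the windows of 3 stretches, and shading marks the windows of the set. In the COX1 stretch all pools share 1 peak, which reaches 33.4 CPM in river pool 10 and 11.9 in lake pool 1. In the zbtb8os stretch only river pools have a first peak while all pools share a second, and in the third stretch no lake pool has a count.

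The other stretches with gene names each held 1 or 2 windows. The stretch at 26188001 carries only locus identifiers of another species, and its first window had 66, 52 and 69 lake counts and 79, 62 and 104 river counts (ratio 1.52). The window at 1671401 lay in a stretch named Cnot6l, which in mammals encodes a deadenylase of the CCR4-NOT complex. It had 87, 78 and 115 lake counts and 108, 77 and 146 river counts, so raw counts overlapped and the ratio of 1.52 rests on the smaller river totals. In a stretch named sox2, a transcription factor of stem and neural cells in vertebrates, the window at 61686901 had 5, 2 and 3 lake counts. Its river counts were 7, 7 and 33, with a mean of 4.55 ± 2.92 CPM (SD, n = 3) against 0.881 ± 0.504 for the lake (SD, n = 2). River pool 12 (7.90 CPM) lay far above river pools 10 (2.57) and 11 (3.16), which were still above the lake.

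The window starting at 16252501, in a stretch named FAXDC2, which encodes a protein with a fatty acid hydroxylase domain, had 6, 2 and 3 lake counts and 11, 6 and 22 river counts. The pools do not overlap in CPM, but lake pool 1 and river pool 11 had equal counts. The stretches at 6415301 and 4315401 each held a pair of adjacent windows with ratios from 1.60 to 2.44 and at most 35 summed counts. The windows starting at 32523401 (ratio 1.50) and 22715201 (2.23) lay in stretches named only by locus identifiers. In the latter the counts were 20, 19 and 21 in the lake and 30, 27 and 47 in the river, so the sites were parted by raw count too.

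Pools that took no part in the choice showed how far the excess carried over. Windows were chosen again from 2 lake and 2 river pools, with at least 21 counts over these 4 pools and the same ratio, and the left-out lake and river pool were then compared. Over the 9 choices the left-out river pool was higher in 74.1% of the chosen windows on average (53.6% to 93.8%). Over all windows with as many counts this was 36.5% (27.2% to 47.6%). The left-out river pool was at least 1.5 times the left-out lake pool in 40.5% of the chosen windows and in 11.2% of all windows. Lake pools 2 and 3 were alike, so when 1 of them was left out the other stayed in the choice. With this pair merged, the average share of chosen windows higher in river was 65.5%. Each choice then used only 1 lake and 2 river pools, which makes the rule easier to meet. The share over all windows is not given for this setting, so the effect of the pair alone was not tested. The excess thus carried over in part, and its size depended on the pools left out. It was smallest with lake pool 1 and river pool 12 left out, where 53.6% of 5894 chosen windows were higher in river against 47.6% of all windows. There the left-out river pool was at least 1.5 times the lake pool in 7.67% of the chosen windows, below the 13.1% of all windows. The 9 choices share pools and windows share fragments, so no test was made.

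The edgeR quasi-likelihood test over all windows with 10 or more counts, with Benjamini-Hochberg adjustment, was read for these windows only as a description. It called 172 of the 324 windows (53.1%) higher in river at an adjusted p under 0.05, beside 0.669% of the 146394 windows tested. In the lake direction 0.419% of all windows were called. The rule and the test use the same contrast, so nothing follows from this count. The calls depended on which pools entered, and each of the following settings also chose its own, larger set of windows. With lake pools 2 and 3 merged 15 of 449 windows were called, beside 0.0116% of all windows tested in that setting. It was 42 of 1019 without lake pool 1 (0.0330% of all), 12 of 369 without lake pool 2 (0.00871%) and 11 of 432 without lake pool 3 (0.00887%). Without river pool 10 it was 6 of 422 (0.00493%), and without river pool 11 it was 236 of 717 (0.327%). Without river pool 12 it was 1824 of 1848, where 11.8% of all windows tested were called higher in river.

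The number of windows taken also depended on single pools. Leaving out lake pool 1 gave 1019, leaving out river pool 11 gave 717 and leaving out river pool 12 gave 1848, and each of the other pools gave from 369 to 432. A rule on the lowest and highest pool is easier to meet with fewer pools. Of the 324 windows taken from all pools, 210 were still taken without river pool 12, where part of them fall under 31 counts, and 248 or more without any other pool.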

How the data were processed

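MeDIP DNA of 6 pools was sequenced by the authors, and reads were mapped with Bowtie2 to a transcriptome of the species. SAMtools and MEDIPS gave reads per 100 bp window, with versions not given in the sources used here. In the authors' deposited table each pool has raw read counts by window and an RPKM column equal to them times a constant. Its columns of site means and of the authors' edgeR comparison (fold changes, p-values) were not used. The submitters' notes also name FastQC, Trimmomatic and edgeR.

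Counts were scaled to CPM by column totals. Windows were tested with edgeR 4.0.16 (quasi-likelihood, TMM, robust, two-sided, limma 3.58.1, R 4.3.3), with DESeq2 1.42.0 as an alternative, and the fit was tested on simulated data. The other values came from Python 3.11.15 with numpy, pandas and scipy. Log2 ratios used a pseudocount of 0.5 CPM. With 3 pools per site no exact permutation test can go below p = 0.1, and p-values measure only the spread between these pools.

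The rule, the windows and the lists were chosen with earlier results of these data known. Named windows are the 5 with the largest ratio (each lake CPM set to at least that of 1 count), the 5 with most counts, the 5 longest runs, the 5 stretches with most windows (ties by summed counts), 3 on either side of the threshold, and up to 12 gene-named stretches in order of their windows and counts. Sequences and CpG counts were not used here.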

Additional observations from a re-analysis of the deposited data

How the results depend on the processing

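No paired analysis was possible because lake and river pools hold different snails from different sites. Settings are compared with 324 windows, 26.5% of them beside another, 35.2% at an end, a flank median of 0.43, 172 called windows and 4199 in the lake direction. Windows taken numbered 624 (TMM-adjusted totals), 743 (DESeq2 size factors), 950 and 146 (minimum of 10 and 60 counts), 1123 and 71 (ratio lowered by 0.25 and raised to 2) and 1082 (trend removed). Lake windows numbered 2530 (DESeq2 size factors), 6676 and 2353 (minimum of 10 and 60), 9499 and 1019 (ratio lowered by 0.25 and raised to 2) and 1654 (trend removed). The share beside another window was 31.9% (DESeq2 size factors), 39.3% and 15.5% (ratio lowered by 0.25 and raised to 2) and 33.6% (trend removed). The share at an end was 27.7% (TMM), 27.6% (DESeq2 size factors), 26.9% (trend removed) and 7.10% with stretches parted by 20 empty windows, where 2.53% of all windows were end windows. The flank median was 0.28 and 0.62 with a minimum of 10 and 60 counts. Called windows numbered 269 of 743 (DESeq2 size factors) and 111 of 146 (minimum of 60). The ratio lowered by 0.25 and raised to 2 gave 449 of 1123 and 58 of 71. These were read from the main fit, which called 0.669% of all windows tested higher in river. Merging lake pools 2 and 3 gave 15 of 449, beside 0.0116% of all windows tested. Of the 324 windows the edgeR exact test called 293, beside 4.11% of all windows, and the DESeq2 Wald test 101, beside 3.17%. Leaving out 1 pool at a time gave 369 to 1848 windows, 24.9% to 55.1% beside another and 22.5% to 52.1% at an end. The flank median was then 0.38 to 0.52, and lake windows numbered 3802 to 20251. Called windows numbered 6 to 1824, beside 0.00493% to 11.8% of all windows tested. The flank median stayed above 0 in every setting run. Apart from the rule's own thresholds, the minimum counts and the number of pools, the cause was not tested. The removal of the trend was chosen after seeing the data. At a median of 8 counts in the lowest river pool, single ratios near 1.5 are not well resolved at this depth.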

Other observations

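Windows higher in all river pools and windows higher in all lake pools occurred in the same stretch in 4 of the 276 stretches. In the stretch from 7766101 to 7767300 the first window had 10, 5 and 11 lake counts and 11, 18 and 17 river counts, and it was in the river set. The window starting at 7766901 had 35, 62 and 57 lake counts and 13, 10 and 28 river counts. River pools 10 and 11 were below the lake pools in count along most of this stretch and not in its first window.

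In the stretch from 3658301 to 3659400 the window starting at 3658501 had 19, 27 and 36 lake counts and 2, 2 and 11 river counts. The window starting at 3659201, which lies just inside the threshold, had 18 to 24 lake counts and 21 to 30 river counts, and the window before it had no count in any pool. The stretches at 24950501 and 2147201 were of the same kind, with 3 lake-higher windows in the first and 1 in the second. In these 4 stretches the direction differed between windows of the same neighbourhood.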
